A study of Mus musculus with 29 samples.

Results

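The EGF receptor family and its ligands were followed in mouse urothelium, the epithelium that lines the bladder, and in bladder tumors of mice that express an activated form of the nuclear receptor Pparg. The set holds 10 genes, chosen by name out of 35199 in each table. The 4 receptors are Egfr, Erbb2, Erbb3 and Erbb4, and the 6 ligands are Areg, Ereg, Hbegf, Tgfa, Btc and Nrg1.

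Receptors of this family sit in the plasma membrane and are tyrosine kinases that signal as pairs. Areg, Tgfa and the ligand Egf bind Egfr, Ereg, Btc and Hbegf bind both Egfr and Erbb4, and Nrg1 binds Erbb3 and Erbb4. Erbb2 has no ligand of its own and serves as the preferred partner of the others, whereas Erbb3 has little kinase activity and passes the signal on by recruiting PI3-kinase. The ligands are made as membrane proteins and are released by proteases such as Adam17, and the active receptors feed the RAS-MAPK and PI3K-AKT cascades. In the bladder, Egfr is known from basal urothelium and basal cancers, and Erbb2 and Erbb3 from luminal cancers.

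Bulk RNA-seq was analyzed in 21 libraries from 6 groups. Gfp+ basal cells were sorted 4 days after tamoxifen from 4 controls, labelled wild type and given in the methods as K5;mTmG, and from 5 mutants labelled K5VP16;Pparg+/-. In the mutants, tamoxifen activates Krt5CreERT2 in Krt5-expressing cells and turns on VP16;Pparg, a ligand-independent fusion at the Rosa26 locus under a CAG promoter. The mTmG reporter is common to both groups and marks the cells that Cre has recombined with Gfp. The methods also place an IRES-EGFP in the VP16;Pparg cassette, so Gfp in mutants may come from the transgene as well. Tumor tissue was taken by laser capture from mice given 0.05% BBN, a bladder carcinogen, in the drinking water. The treatment is labelled 5 months of BBN, and the 4 months in the sample titles match the time after tamoxifen. Tamoxifen followed the first month of BBN. It was given into the bladder under ultrasound guidance, in the methods as 4-OHT, whereas the mice for sorted cells received tamoxifen by intraperitoneal injection. The methods give an age of 8 to 12 weeks at tamoxifen. From controls labelled wild type there were 3 basal tumors, and the study names its control tumors VP16;Pparg fl/fl in some places and K5;mTmG in others. From K5VP16;Pparg+/- mice there were 3 luminal tumors, 3 luminal domains (the upper part of a mixed lesion) and 3 basal-like domains (its lower part). Only Krt5-expressing cells and their progeny carry the active transgene, so captured stroma does not.

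The values are normalized counts, made separately for each table, so levels were compared within a table and never between genes. They summed to between 36520193 and 41435665 in the sorted libraries and to between 41697178 and 53904714 in the tumor libraries, and the number of reads behind them is unknown. Of the 10 genes, all passed the filter on low values in the sorted cells and 9 in each tumor table, where Erbb4 did not. In the mutant sorted cells, Pparg RNA itself was lower than in every control, at 6111 to 9032 against 9381 to 9999 normalized counts. Its log2 fold change was -0.36, short of the threshold (limma adjusted p = 0.126). Whether transgene RNA counts toward these values is unknown. Fabp4, a Pparg target, was 24.9-fold higher in the mutants, at 4969 to 30598 against 207 to 467 (limma adjusted p = 0.00171). Sorted control cells held the basal keratin Krt5 at 91106 to 109572 normalized counts, little Krt14 (388 to 747), and the superficial cell gene Upk1a at 66833 to 119386, so luminal RNA was present in the basal gate. Among the tumors, Pparg was at 13.0 to 126 in basal tumors and 3579 to 8632 in luminal tumors (log2 fold change 6.74, adjusted p = 0.0135), and Upk2 rose with it. Y-linked RNA was high in 3 of the 4 sorted controls and low in the remaining control (CT063) and in all 5 mutants, so that Y-linked RNA and genotype moved together in the sorted cells. All 12 tumor and domain libraries were high in Y-linked RNA.

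**Figure D1:**
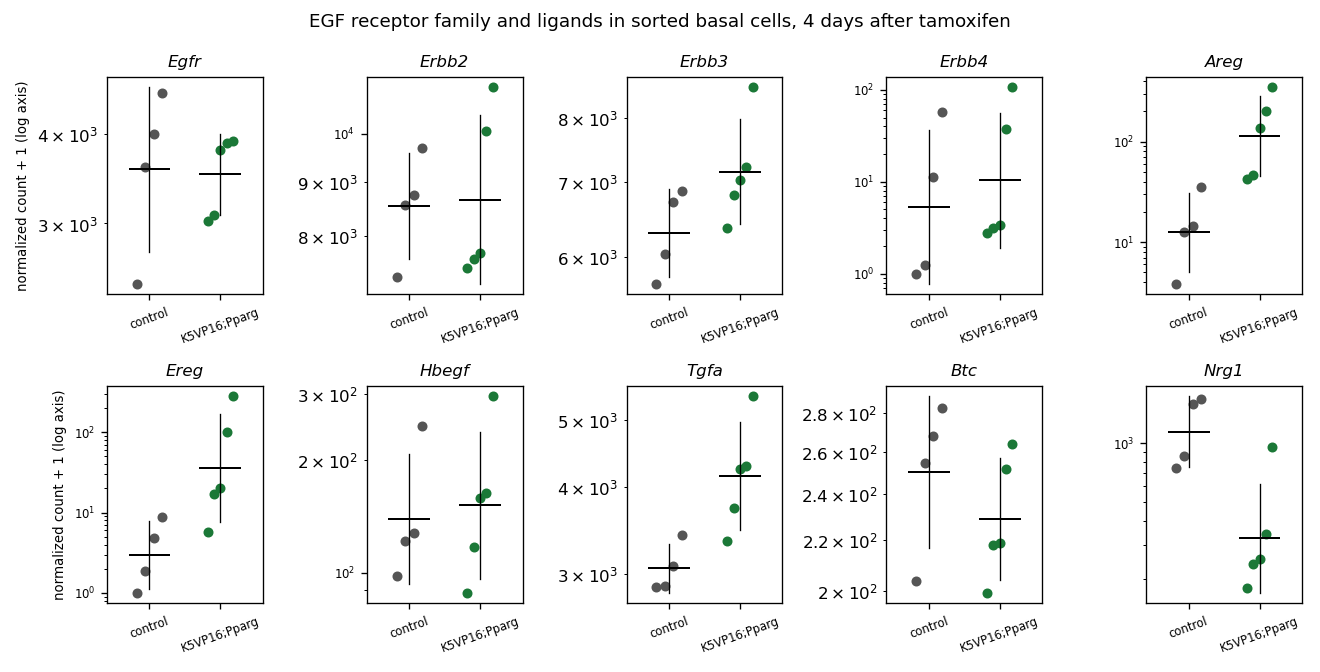
Normalized counts plus 1 (log axis) of the 10 genes in sorted Gfp+ cells 4 days after tamoxifen, 1 panel per gene. Points are libraries (4 control in grey, 5 K5VP16;Pparg in green), the wide bar is the mean of the log2 values and the thin line 1 SD either way. Areg is the gene without overlap between groups, at 2.84 to 34.1 in controls and 41.5 to 347 in mutants.

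The comparison of sorted cells asked how the receptors and ligands stood 4 days after Pparg was activated in basal cells. Egfr, Erbb2 and Erbb3 were near their control levels. The ligand Areg was many-fold higher, Tgfa was 1.36-fold higher and Nrg1 was at 0.28 of the control level, each short of the threshold. Ereg, under 10 normalized counts in every control, was above the controls in every mutant but CT078. None of the 10 genes had an adjusted p under 0.05 by limma with Benjamini-Hochberg adjustment over 16413 genes, against 2.85% of all genes tested. The groups did not overlap for 1 of the 10, Areg, against 9.18% of all genes.

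Egfr, the receptor for most of the ligands measured here, was at 3999, 2469, 4565 and 3598 normalized counts in controls and at 3019, 3079, 3910, 3802 and 3878 in mutants. The control range enclosed the mutant range. Its log2 fold change was -0.02 (SE 0.17, 95% interval -0.41 to 0.36, adjusted p = 0.956). Erbb2, the shared partner, was at 8584 ± 982 in the 4 controls and 8781 ± 1676 in the 5 mutants (mean ± SD). Its log2 fold change was 0.02 with an interval of -0.30 to 0.34, so a change beyond about 1.27-fold either way lies outside it. Erbb3, the neuregulin receptor, was at 6027, 6866, 6711 and 5668 in controls and at 6363, 7219, 6809, 7027 and 8520 in mutants. The groups overlapped, with library CT078 the highest, and the log2 fold change was 0.18 (SE 0.10, adjusted p = 0.348). Erbb4 was barely detected, at 0 to 56.9 in controls and 1.79 to 106 in mutants, and 3 mutant libraries were under 3 normalized counts. Its log2 fold change of 0.97 had an SE of 1.48.

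Areg (amphiregulin), a ligand of Egfr, was at 34.1, 11.7, 2.84 and 13.4 normalized counts in controls and at 347, 134, 202, 45.6 and 41.5 in mutants. Every mutant library stood above every control library, by a narrow margin between control CT063 (34.1) and mutant CT078 (41.5). Mutants were 9.07-fold higher (log2 fold change 3.18, SE 0.77), with an adjusted p of 0.0579 that missed the threshold. With limma's array weights it passed (2.93, adjusted p = 0.042). Against CT063 alone, the 1 control with low Y-linked RNA, the 5 mutants differed by 1.69, a value that rests on a single control library.

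Ereg (epiregulin), a neighbor of Areg in the genome, was at 3.81, 0, 0.882 and 7.74 in controls and at 281, 99.7, 16.1, 19.4 and 4.77 in mutants. Mutants CT070 and CT071 were far above the rest, and CT078 lay within the control range. Over genes averaging 100 or more normalized counts, the median absolute log2 difference between CT070 and CT071 was 0.218. It was 0.177 to 0.233 among CT074, CT076 and CT078, and 0.312 to 0.352 between these and CT070 or CT071. Among controls it was 0.174 to 0.236. Egfr was also lower in CT070 and CT071 (3019 and 3079) than in CT074, CT076 and CT078 (3802 to 3910). The cause was not tested. All 4 controls were under 10 normalized counts, so Ereg met the filter through mutants alone. Its fitted log2 fold change was 3.58 (SE 1.1, adjusted p = 0.106). The size of that value depends on the 1 added to each count, and no conclusion is drawn from it. Tgfa (transforming growth factor alpha) was at 2875, 3417, 3076 and 2881 in controls and at 5405, 4242, 3729, 3351 and 4290 in mutants. Only mutant CT076 lay within the control range. Mutants were 1.36-fold higher (log2 fold change 0.44, SE 0.13, adjusted p = 0.102). The ligands Hbegf, at 148 ± 67.0 (SD, n = 4) and 164 ± 79.9 (SD, n = 5), and Btc, at 251 ± 34.3 and 229 ± 26.7, differed by less than their spread.

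Nrg1 (neuregulin 1), the ligand of Erbb3, was at 1702, 1600, 857 and 746 in controls and at 338, 956, 178, 251 and 239 in mutants. Of the 5 mutants, 4 lay under every control, and CT071 lay inside the control range. The log2 fold change was -1.83 (SE 0.47, 95% interval -2.87 to -0.79, adjusted p = 0.0664). Without CT071 it was -2.22 and passed the threshold (adjusted p = 0.0104), and with array weights it was -2.06 (adjusted p = 0.0185). In the other 8 fits with a library left out it did not pass, and was at -2.04 to -1.62 with adjusted p up to 0.179. Against CT063 alone, the control with low Y-linked RNA and the highest Nrg1 of the 4, it was -2.40. Fewer cells of a type and less RNA per cell cannot be told apart in bulk libraries. The 6 fibroblast markers summed to 11651 to 84707 normalized counts in controls and 30652 to 217371 in mutants, and the 6 log2 fold changes were all above 0, with Lum called higher. Nrg1 was highest in the control with the smallest fibroblast sum (CT063) and, among mutants, in the one with the smallest (CT071). Schwann cell markers summed to 51.7 to 104 in controls and 53.8 to 125 in mutants. The 7 basal markers (Krt5, Krt14, Krt6a, Krt16, Trp63, Cd44 and Col17a1) summed to 141874 to 177460 in controls and 98085 to 137567 in mutants. CT063 had the smallest of the control sums and CT071 the highest of the mutant sums. Cd44 was called higher and Col17a1 lower. The part of cell composition in these differences was not tested.

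Areg, Ereg and Btc lie side by side with another ligand gene, Epgn, on mouse chromosome 5. In RefSeq GRCm38.p6 the 4 genes span chr5:91027517-91402994, or 375 kb, with gaps of 39.4 kb between Epgn and Ereg, 45.9 kb between Ereg and Areg, and 208.8 kb between Areg and Btc. The neighbors did not share one pattern in the sorted cells, since Btc had a log2 fold change of -0.13 and Epgn was not among the tested genes. Promoter windows (250 bases before to 50 after the annotated start, RefSeq GRCm38.p6) were found for 6 of the 10 genes, namely Egfr, Erbb2, Erbb4, Areg, Btc and Tgfa. They were searched on both strands for TATAAA, the AP-1 motif (TGAGTCA or TGACTCA), the cyclic AMP response element CRE (TGACGTCA), the GC box (GGGCGG) and DR1, the PPAR-type direct repeat of AGGTCA with any 1 base between the copies. The 250 bases upstream of Areg and of Egfr are shown because Areg was the gene whose sorted groups did not overlap and Egfr had nearly the same level in both. The Areg stretch is chr5:91139349-91139598 and the Egfr stretch chr11:16751953-16752202, both on the plus strand, and capitals mark matches on either strand.
Areg: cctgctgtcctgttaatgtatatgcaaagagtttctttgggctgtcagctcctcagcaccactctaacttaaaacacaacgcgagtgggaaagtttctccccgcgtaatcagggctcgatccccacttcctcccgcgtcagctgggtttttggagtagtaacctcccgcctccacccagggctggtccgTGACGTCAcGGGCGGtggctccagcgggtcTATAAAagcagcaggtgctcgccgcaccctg
Egfr: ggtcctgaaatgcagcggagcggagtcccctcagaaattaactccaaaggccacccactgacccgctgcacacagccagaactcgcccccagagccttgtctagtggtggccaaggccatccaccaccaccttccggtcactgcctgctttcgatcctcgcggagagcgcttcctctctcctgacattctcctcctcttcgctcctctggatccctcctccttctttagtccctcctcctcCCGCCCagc
With the start as 0 and -1 as the base before it, Areg held TATAAA at -31 to -26, the CRE at -61 to -54 and GC boxes at -52 to -47 and, beyond the stretch shown, at 37 to 42. The Egfr window held a single match, a GC box at -9 to -4. Tgfa held GC boxes alone, and the Erbb2, Erbb4 and Btc windows held no match to these letters. None of the 6 windows held DR1 or AP-1. Of 32851 promoter windows of this length, 13.6% held TATAAA, 1.79% the CRE, 35.7% the GC box, 5.2% AP-1 and 0.0396% DR1.

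The wider pathway was read from 65 genes in 8 lists, of which 64 were tested in sorted cells. A single gene passed the threshold in each direction (2.85% of all genes passed in either), and 6 of the 64 had groups that did not overlap, near the 9.18% over all genes. Spry1 (Sprouty 1), a feedback inhibitor of receptor tyrosine kinase signaling, was at 1424, 1390, 1784 and 2209 normalized counts in controls and at 646, 1054, 559, 645 and 761 in mutants. No mutant reached a control, and the log2 fold change was -1.22 (SE 0.20, adjusted p = 0.0177). Egr1, an immediate early target of ERK, was at 78.3, 217, 156 and 1023 in controls and 2342, 910, 4316, 1501 and 2254 in mutants. Control CT067 was above mutant CT071, and the log2 fold change was 3.12 (SE 0.68, adjusted p = 0.0417). For Spry1 and Egr1, no other setting, left-out library or covariate for Y-linked RNA was examined.

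Among the other pathway genes of the sorted cells, no further member passed. In the ERK target list (10 genes, median log2 fold change 0.34 against 0.00 over all genes) Etv5, a transcription factor, stood next at 0.68 (adjusted p = 0.0777). In the MAPK feedback list of 8 it was Spred2 at -0.48 (adjusted p = 0.0877). The 6 ligand shedding genes gave Adam9, a membrane protease, at 0.38 (adjusted p = 0.0739) and Rhbdf2, a cofactor of Adam17, at 0.39 (adjusted p = 0.0875), both without overlap between groups. In the PI3K-AKT core of 9 the regulatory subunits Pik3r1 and Pik3r2 had -0.87 (adjusted p = 0.0777) and -0.37 (adjusted p = 0.0936). In the 10 adaptors, Eps8, an Egfr substrate, had 0.53 (adjusted p = 0.0746) and the RAS exchange factor Sos2 -0.31 (adjusted p = 0.168). Map2k1 (0.27) and Mapk3 (0.21) led the RAS-MAPK core, Nrg4 (-1.06) and Nrg2 (-1.01) the other ligands, and Lrig2 (-0.32) and Socs5 (0.23) the receptor inhibitors, with adjusted p from 0.148 to 0.407. Over all 64 genes the median was 0.01.

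**Figure D2:**
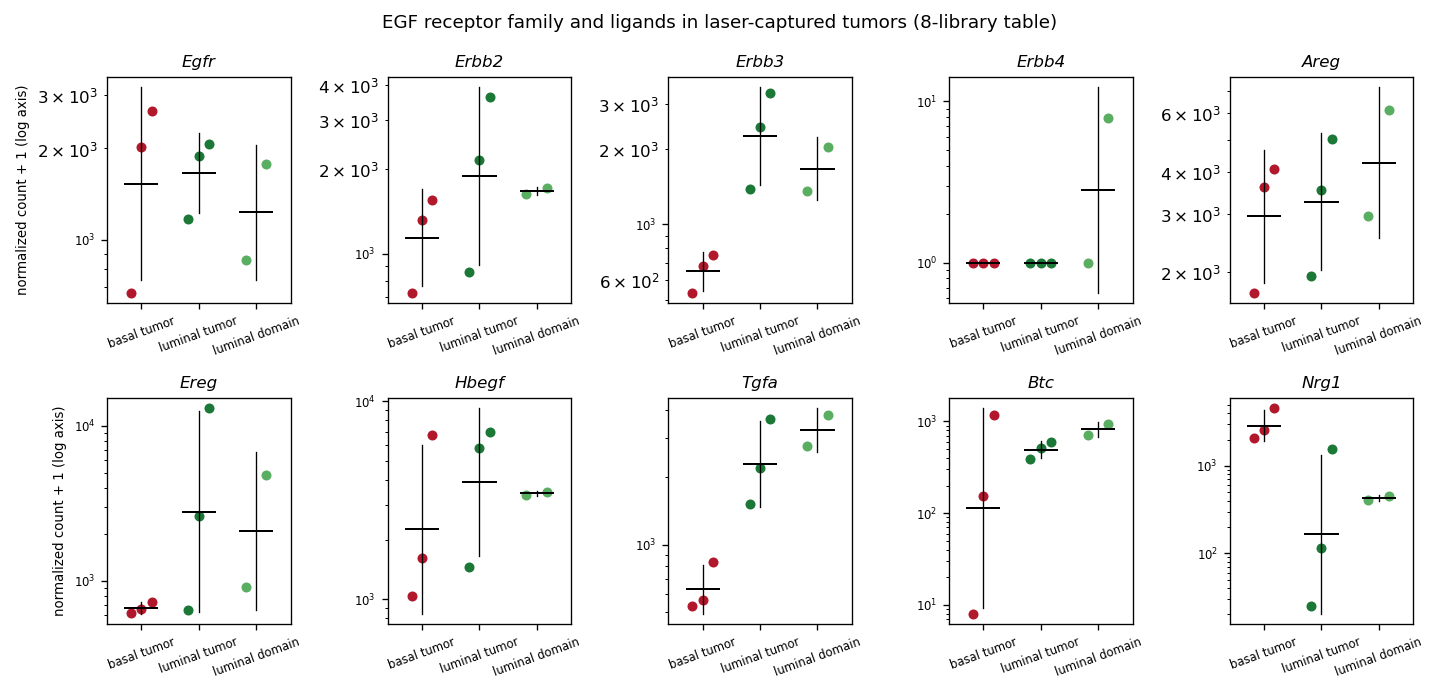
Normalized counts plus 1 (log axis) of the 10 genes in laser-captured tumors of the 8-library table, 1 panel per gene. Points are libraries (3 basal tumors, 3 luminal tumors and 2 luminal domains), the wide bar is the mean of the log2 values and the thin line 1 SD either way. Erbb3 and Tgfa were higher in each luminal tumor than in each basal tumor, and Nrg1 was lower.

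The comparison of tumors asked how the family stood in luminal tumors with active Pparg and in basal tumors of controls. Erbb3 and Tgfa were 3.44-fold and 3.66-fold higher in luminal tumors and Nrg1 was lower, without overlap between groups. None of the 9 genes tested passed the threshold (2.20% of all 15357 genes did). Groups did not overlap for 3 of the 9, against 21.5% of all genes. The median log2 fold change over all genes was -0.11.

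Egfr was at 669, 2656 and 2020 normalized counts in basal tumors and at 1169, 2065 and 1889 in luminal tumors. The ranges overlapped throughout, and the log2 fold change was 0.11 (SE 0.57, interval -1.17 to 1.40). These data leave room for a more than 2-fold difference in either direction. Erbb2 was at 725, 1319 and 1551 in basal and at 2152, 3638 and 856 in luminal tumors. Luminal tumor CT140, at 856, stood inside the basal range and the other 2 above it, with a log2 fold change of 0.73 (SE 0.56, adjusted p = 0.530).

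Erbb3 was at 681, 754 and 533 in basal tumors and at 2428, 3341 and 1378 in luminal tumors. The lowest luminal tumor, CT140, was 1.83 times the highest basal tumor. The log2 fold change was 1.78 (SE 0.44, interval 0.79 to 2.78, adjusted p = 0.0766). It passed without CT140 (2.13, adjusted p = 0.0330) but in none of the other 7 fits with a library left out, which went down to 1.49 without CT132 (adjusted p = 0.260). The luminal domains in the same table, at 1359 and 2037, were also above the basal tumors. Erbb4 was listed at 0 in all 6 tumors.

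Tgfa was at 562, 838 and 528 in basal tumors and at 1512, 3644 and 2213 in luminal tumors. Each luminal value was above each basal value, and the 2 luminal domains of the table stood higher still than the luminal median, at 3814 and 2772. Its log2 fold change was 1.87 (SE 0.43, interval 0.90 to 2.84, adjusted p = 0.0621). When the 3 luminal tumors and 2 luminal domains were pooled as one group, it was 2.07 and passed (adjusted p = 0.0199).

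None of the remaining Egfr ligands passed the threshold, and their groups overlapped. Ereg was at 617, 728 and 652 in basal tumors and at 648, 12982 and 2598 in luminal tumors. Basal tumors were close together whereas the luminal values ranged 20.0-fold, with CT126 inside the basal range, and the log2 fold change was 2.07 (SE 0.98, adjusted p = 0.300). It was 0.97 without CT132 and 3.13 without CT126. Btc was at 7.05, 153 and 1164 in basal tumors and at 591, 514 and 386 in luminal tumors. Here the basal tumors were the scattered group, and basal tumor CT115 exceeded every luminal tumor. The log2 fold change of Btc, 2.12 (SE 1.49), was 0.21 without CT111 and 3.80 without CT115. Areg was at 3132 ± 1233 and 3499 ± 1527 (SD, n = 3 each), a log2 fold change of 0.15 (interval -0.95 to 1.25). Hbegf was at 3140 ± 3152 and 4742 ± 2917, with a log2 fold change of 0.79 (SE 0.76) that was 0.23 without CT111 and 1.58 without CT115.

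Nrg1 was at 4549, 2074 and 2562 in basal tumors and at 115, 23.9 and 1567 in luminal tumors. All luminal values were under all basal values, but CT140 was close to them whereas the other 2 were at least 18.1-fold under the lowest basal tumor. The fitted log2 fold change was -4.13 (SE 1.24, interval -6.92 to -1.34, adjusted p = 0.126). Without CT140 it was -5.75 and passed the threshold (adjusted p = 0.0106). That was 1 of 8 fits with a library left out, and without CT132 it was -2.76 (adjusted p = 0.298).

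Fibroblast markers moved with Nrg1 in the basal and luminal tumors. They summed to 66575, 44454 and 62708 in the basal tumors, and to 805, 212 and 17130 in luminal tumors CT126, CT132 and CT140. The order of Nrg1 among luminal tumors was the order of this sum. It was also the order of the smooth muscle sum (237, 150 and 1229) and of the basal marker sum (82499, 15793 and 299298). Basal tumors had basal marker sums of 385939, 369059 and 824485. Luminal domain CT128 had a fibroblast sum of 29242, above that of CT140, with Nrg1 at 405. Luminal domain CT143 had a far smaller fibroblast sum, 5086, with Nrg1 at 455. Their basal marker sums were 273862 and 169204. Of the 6 fibroblast markers, 2 were called lower in luminal tumors, and of 5 smooth muscle markers 3 were called lower, against 2.20% of all genes called in either direction. The leukocyte markers summed to 25591 to 134146 in basal and 578 to 9646 in luminal tumors, without a call. Of the epithelial markers, Krt8, a luminal keratin, was called higher (8.45-fold), while Epcam (log2 fold change -0.18) and Cdh1 (0.87) overlapped between groups. The part of stromal or basal cells in the Nrg1 difference was not tested.

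**Figure D3:**
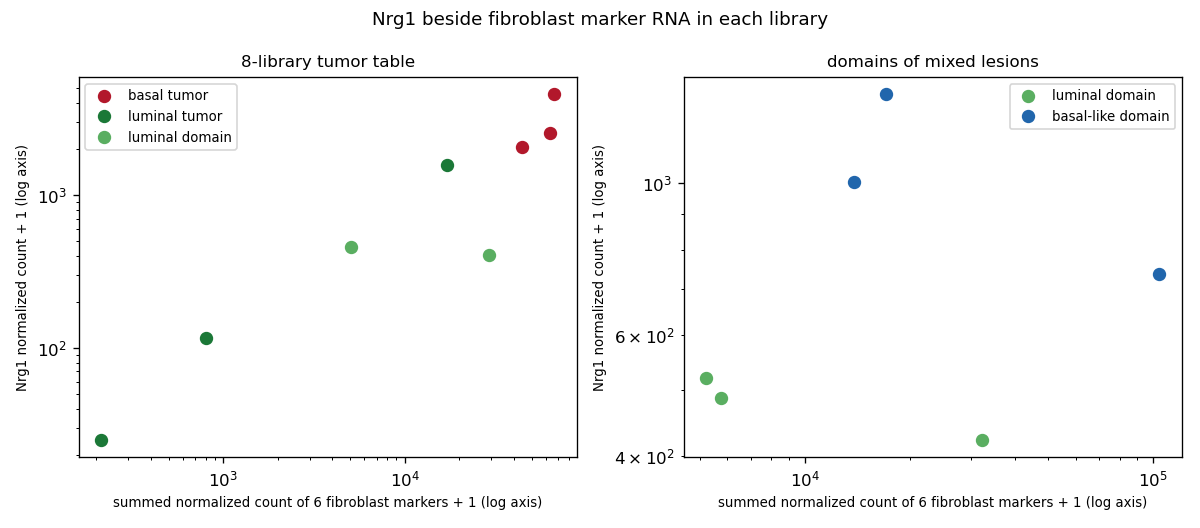
Nrg1 normalized count plus 1 against the summed normalized count of 6 fibroblast markers plus 1 (Col1a1, Col1a2, Col3a1, Dcn, Lum and Pdgfra), both on log axes, 1 point per library. In the tumor table (left) the basal tumors are high on both axes and luminal tumors CT126 and CT132 low on both. In the domain table (right) each basal-like domain has more Nrg1 than each luminal domain, while the sums overlap.

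Of the 64 pathway genes tested in tumors, 1 passed the threshold, against 2.20% of all genes, and 18 had groups that did not overlap, against 21.5%. Nrg4, a ligand of Erbb4, was at 23.7, 111 and 90.7 in basal tumors and was listed at 0 in all 3 luminal tumors. It was the gene that passed (adjusted p = 0.0403). It met the filter on low values through the basal tumors alone, so no conclusion is drawn from that call. In the same list Epgn was at 495, 276 and 563 in basal and 45.6, 1.13 and 153 in luminal tumors, without overlap (adjusted p = 0.215). Among the 8 MAPK feedback genes the median log2 fold change was -1.31, 1 gene was above 0 and none was called. Dusp6, the ERK phosphatase, was at -2.17 (adjusted p = 0.0684) and Dusp4, a related phosphatase, at 2.06 (adjusted p = 0.216). In the ERK target list Etv5 stood at -3.61 (adjusted p = 0.0766) and Phlda1 at 1.47 (adjusted p = 0.0620). Lrig3, of a family of receptor regulators, had -4.73 (adjusted p = 0.176) and Lrig2 -1.29 (adjusted p = 0.389). Rhbdl2, an intramembrane protease, had 1.82 (adjusted p = 0.131), and Adam9 -1.12 (adjusted p = 0.306). The kinases Braf (1.61) and Akt2 (-0.75), the ubiquitin ligase Cblb (-1.79) and Eps8 (1.74) had adjusted p from 0.191 to 0.399.

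The comparison of luminal domains with the same basal tumors, in a table of 6 libraries, gave the single call within the family. Nrg1 was at 4603, 2058 and 2563 normalized counts in basal tumors and at 415, 473 and 507 in luminal domains. The luminal domains were tightly grouped and the lowest basal tumor was 4.06 times the highest of them. The log2 fold change was -2.64 (SE 0.41, interval -3.59 to -1.69, adjusted p = 0.0277). That made 1 of 9 genes tested, against 2.53% of all 14921 genes in either direction and 0.824% called lower. The call held when basal tumor CT113 was left out (-2.89, adjusted p = 0.0287). It was lost without CT111 (-2.31), CT115 (-2.73), CT128 (-2.56), CT143 (-2.66) or CT148 (-2.71), with adjusted p from 0.0580 to 0.125. It was also lost with eBayes without a trend (adjusted p = 0.0713) and with the 2 luminal domains of the 8-library table (-2.75, adjusted p = 0.406). The fibroblast sums were 45948 to 70263 in basal tumors. In luminal domains CT128, CT143 and CT148 they were 31289, 5517 and 5011, the reverse of the order of Nrg1. None of these markers was called, whereas 3 of 5 smooth muscle markers were called lower. The 7 basal markers summed to 386834 to 876300 in basal tumors and 186580 to 297924 in luminal domains, without a call. The part of these cell types in the Nrg1 difference was not tested.

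Groups did not overlap for 5 of the 9 genes in this comparison, against 26.8% of all genes. Erbb3 was at 719, 780 and 556 in basal tumors and 1455, 2209 and 1676 in luminal domains, a log2 fold change of 1.37 (SE 0.37, adjusted p = 0.100). Tgfa was at 583, 852 and 542 and at 4016, 2957 and 1218, a log2 fold change of 1.91 (SE 0.50, adjusted p = 0.0944). Both genes were higher in every luminal domain. Ereg, at 651 to 753 in basal tumors, was at 976, 5192 and 1382 in luminal domains (1.46, adjusted p = 0.231, and 0.74 without CT143). Erbb2, at 764 to 1618, was at 1839, 1775 and 1813 (0.60, adjusted p = 0.418). The small spread of Erbb2 among luminal domains contrasted with a 2.12-fold range among basal tumors. Btc was at 7.12, 152 and 1163 in basal tumors and at 728, 967 and 1055 in luminal domains. Basal tumor CT115 was above every luminal domain, and the log2 fold change of 3.0 (SE 1.58) fell to 1.11 without CT111 and was 4.69 without CT115. Egfr (-0.20), Areg (0.55) and Hbegf (0.36) also overlapped between groups, and Erbb4 was at 7.54 in CT143 and listed at 0 in the other libraries.

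**Figure D4:**
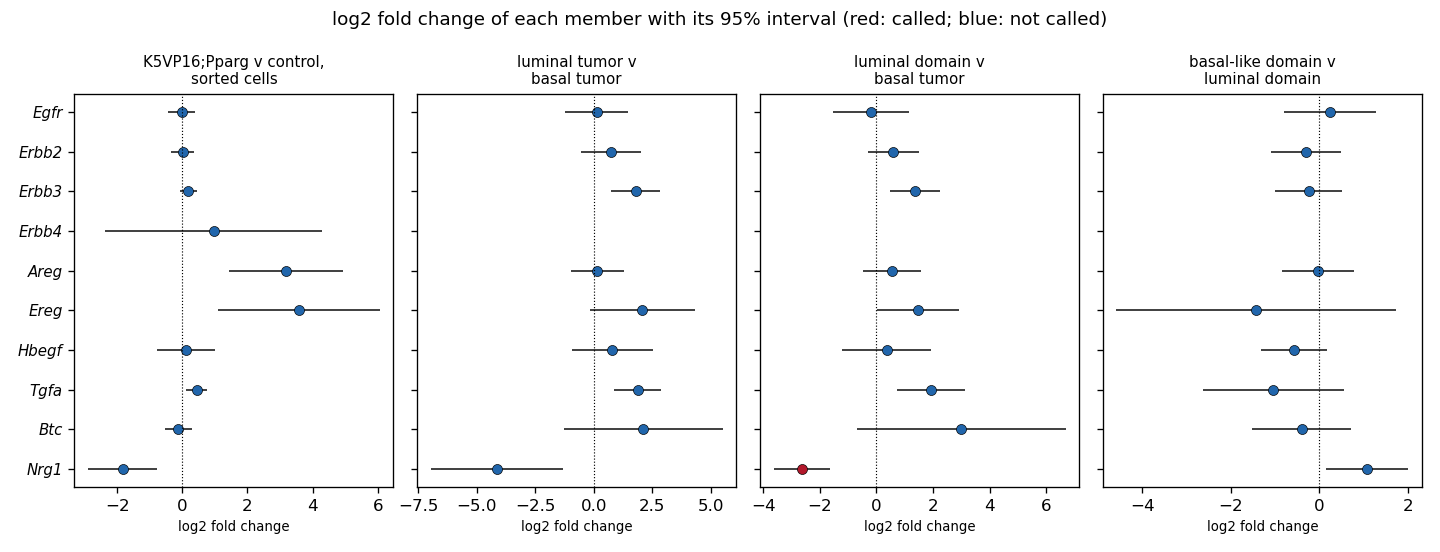
Log2 fold change of each gene with its 95% interval in the 4 comparisons, on separate horizontal scales, with red for a gene past the threshold and blue for the others. Nrg1 in luminal domains against basal tumors is the red point, at -2.64. Erbb4 is shown for sorted cells alone, where it passed the filter on low values.

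The basal tumors are shared by the 2 tumor comparisons, so these are not independent. Side by side, the log2 fold changes in luminal tumors and in luminal domains were 1.78 and 1.37 for Erbb3, 1.87 and 1.91 for Tgfa, 2.07 and 1.46 for Ereg, and -4.13 and -2.64 for Nrg1. They were 0.11 and -0.20 for Egfr, 0.73 and 0.60 for Erbb2, 0.15 and 0.55 for Areg, 0.79 and 0.36 for Hbegf, and 2.12 and 3.0 for Btc. No pathway gene passed among 64 tested against luminal domains (2.53% of all genes did), and 19 did not overlap between groups, near the 26.8% over all genes. Nrg4 was at 25.0 to 115 in basal tumors and at 0 to 0.79 in luminal domains (adjusted p = 0.0525), and again met the filter through the basal tumors alone. The MAPK feedback genes had a median of -1.03, with Dusp6 at -2.54 (adjusted p = 0.0637) and the RAS inhibitor Spred1 at -1.62 (adjusted p = 0.0708). Lrig3 (-3.81, adjusted p = 0.0780), Myc (-1.35, adjusted p = 0.0819) and Etv5 (-2.15, adjusted p = 0.131) also had groups without overlap. The same was true of Rhbdl2 (1.92, adjusted p = 0.119), Braf (1.46, adjusted p = 0.212) and Epgn (-2.03, adjusted p = 0.265). Overlapping groups and adjusted p from 0.299 to 0.566 were found for Pik3r1 (1.48), Pik3r3 (1.06), Shc1 (0.87), Rhbdf1 (0.82), Sos2 (-0.69) and Socs5 (-0.92).

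**Figure D5:**
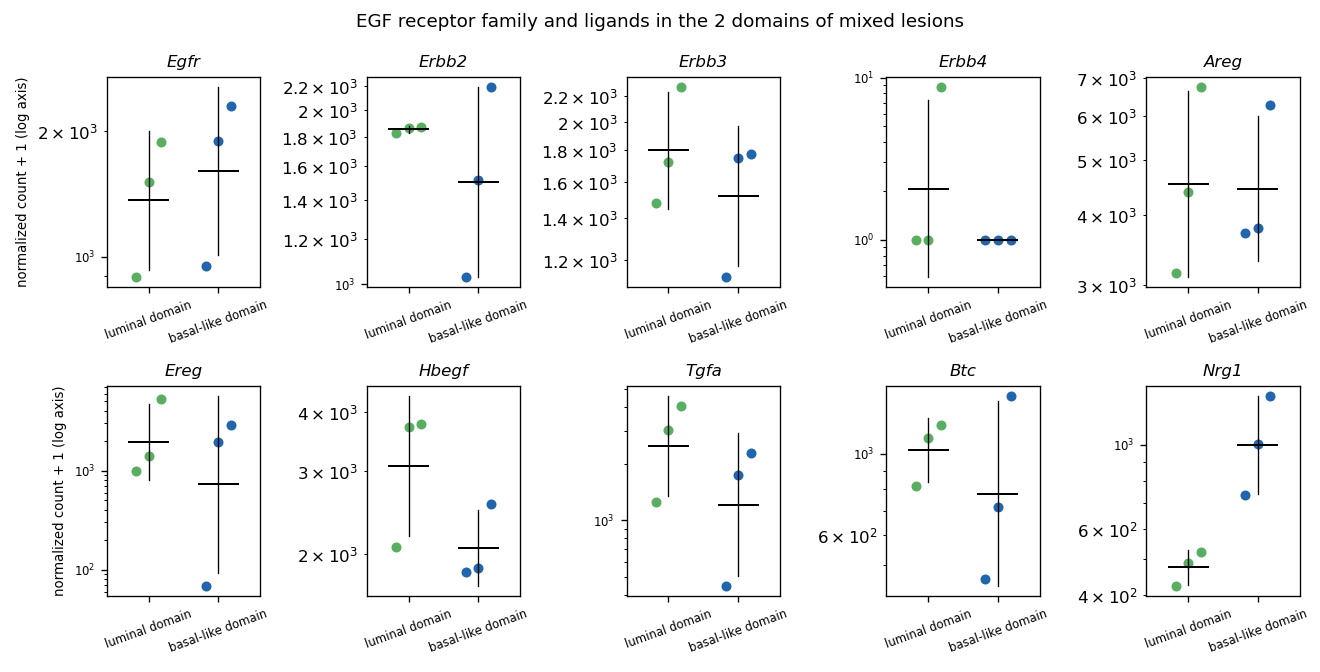
Normalized counts plus 1 (log axis) of the 10 genes in luminal and basal-like domains of mixed lesions, 3 libraries each, 1 panel per gene. The wide bar is the mean of the log2 values and the thin line 1 SD either way. Nrg1 is the gene without overlap, at 421 to 519 in luminal and 736 to 1345 in basal-like domains.

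The domains of mixed lesions were compared to see how the family differed between the upper and the lower part. Upper and lower domains may come from the same lesions, but the labels do not tie libraries to lesions, so they were compared as separate groups. Nrg1 was at 421, 485 and 519 normalized counts in luminal domains and at 736, 1345 and 1004 in basal-like domains. It was 2.11-fold higher in the latter, with no overlap, and the log2 fold change was 1.07 (SE 0.40, interval 0.16 to 1.99, adjusted p = 0.935). None of the 9 genes passed, as was true of all 14874 genes tested by limma (0.00%), of which 757 had an unadjusted p under 0.05. With eBayes without a trend 20 genes passed, none of them in the family. Nrg1 was the 1 gene of 9 whose groups did not overlap, against 10.8% of all genes. Fibroblast marker sums were 32313, 5769 and 5225 in luminal and 104068, 17153 and 13859 in basal-like domains. Basal marker sums were 307383, 195108 and 242125 in luminal and 275561, 521612 and 477430 in basal-like domains. All 7 basal markers had log2 fold changes above 0, without a call. The part of these cell types in the Nrg1 difference was not tested.

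Tgfa was at 4072, 3037 and 1250 in luminal domains and at 2285, 1750 and 443 in basal-like domains. The groups overlapped, and the log2 fold change was -1.04 (SE 0.68), or -1.54 without CT148 and -0.32 without CT149. Ereg was at 990, 5336 and 1419 and at 67.0, 2876 and 1967, with basal-like domain CT129 far under the others. Hbegf was at 3768, 3725 and 2070 and at 1833, 1871 and 2556, with an interval of -1.31 to 0.15. Erbb2, at 1826 to 1868 in luminal domains, ranged from 1028 to 2189 in basal-like domains. Erbb3 (-0.24), Egfr (0.23), Btc (-0.40) and Areg (-0.03) had overlapping groups. Erbb4 was at 7.78 in luminal domain CT143 and listed at 0 in the other 5 libraries.

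None of the 62 pathway genes tested passed between the domains, and adjusted p was 0.830 or more for those named here. The groups did not overlap for 12 of them, against 10.8% of all genes. Lrig3 was at 2.95, Spry1 at 1.15, Dusp4 at -1.73, Lrig2 at -1.03, Ier3 at -0.69 and Map2k2 at -0.54 on the log2 scale, all without overlap. The 8 MAPK feedback genes had a median of 0.87, with 6 above 0. Myc (0.52), Adam9 (0.58), Rhbdl2 (-0.31), Pik3ca (-0.42), Sos2 (0.40), Eps8 (-0.12), Nrg2 (1.19) and Epgn (-0.92) overlapped.

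The genes most like each receptor were taken as those with the highest Pearson r of log2(normalized count + 1), as a description with no test. Over the 9 sorted libraries and 11532 genes, they were Prdm15 (0.938), Tmem135 (0.928) and Cipc (0.892) for Egfr, Klhdc7a (0.943), Retreg3 (0.939) and Dcaf11 (0.930) for Erbb2, and Gmppa (0.936), Golga5 (0.929) and Tor2a (0.906) for Erbb3. Over the 8 libraries of the tumor table and 11704 genes, they were Dexi (0.974), Apbb3 (0.945) and Ppargc1b (0.937) for Egfr, Ppme1 (0.962), Relch (0.950) and Nhsl1 (0.944) for Erbb2, and Tbcb (0.989), Pin4 (0.986) and Ddt (0.984) for Erbb3. Libraries share tissue, group and normalization, and no gene was named for the same receptor in both tables.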

How the data were processed

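RNA-seq libraries of sorted urothelial cells and laser-captured bladder tumors were analyzed from 4 tables. The authors quantified reads with kallisto 0.44.0, summed transcripts to genes with tximport and normalized each table with DESeq2 1.18. Signal values as deposited by the authors are therefore normalized counts, with scaling factors that differ between genes, so whole reads could not be recovered. The methods give a targeted depth, but the depth that each library reached is unknown. The index and its genome build are not given in the sources used here. Tables of the authors' own fold changes and p-values were not used. A table with 8 sample columns of wild-type mice, untreated or given BBN for 1 month, was not used, because neither the labels nor the files say which columns are untreated and which were given BBN. Columns were assigned to groups by the labels. The labels do not say that libraries came from separate animals, so p-values measure the spread between these samples.

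A gene was tested when the number of libraries with 10 or more normalized counts reached the size of the smaller group. The test was limma 3.58.1 (R 4.3.3; lmFit, then two-sided eBayes with an intensity trend), applied to log2(normalized count + 1). This scale understates the change of low genes. P-values were adjusted over all genes tested by the Benjamini-Hochberg method at 0.05. The tumor fit had 3 groups (basal tumor, luminal tumor, luminal domain). Scripts were tested on simulated data with 200 changed genes. Alternatives were other pseudocounts, filters and scalings, array weights, robust eBayes and eBayes without a trend, other tables or poolings, a covariate for Y-linked RNA, and each library left out in turn. All 10 genes are named, with pathway genes past the threshold and the 2 with the smallest p in each list with no more than 2 past it, and a few that this rule names are not reported here. For likeness, genes averaging 100 or more normalized counts were ranked, and the first 3 are given. The members, lists and tests were chosen with earlier results of these data known. Plots were made in matplotlib 3.10.9 (Python 3.11.15, pandas 2.3.3). Promoter sequences and gene positions are from RefSeq GRCm38.p6.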

Additional observations from a re-analysis of the deposited data

Results flagged for a closer look

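Nrg1 in the sorted mutant cells was examined again because 1 library stood apart. Library CT071 was at 956 normalized counts, and the other 4 mutants were at 178 to 338. Its gap to the nearest of them was 0.795 of the whole range of the group, above Dixon's critical value of 0.71 for 5 samples. Among the 20 combinations of gene and sorted group examined, this was the only such gap, and chance gives about 1 in 20. CT071 also had the smallest fibroblast marker sum of the mutants (30652) and the highest Pparg RNA (9032 against 6111 to 8458). The cause was not tested.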

How the results depend on the processing

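Settings other than leaving out libraries kept direction and side of the threshold for 106 of 115 values in sorted cells, 97 of 99 in tumors, 88 of 90 against luminal domains and 80 of 81 between domains. The number of family members called in sorted cells was 0, but 2 with array weights (Areg and Nrg1). In tumors it was 0, but 1 with 5 luminal libraries pooled (Tgfa). Against luminal domains it was 1, but 0 with eBayes without a trend and 0 with the 2 domains of the 8-library table, where Nrg1 was at -2.75 (adjusted p = 0.406). With each library left out in turn it ranged from 0 to 1 in sorted cells, from 0 to 2 in tumors and from 0 to 1 against luminal domains.

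Reversed values were all of genes far from the threshold. In sorted cells, Egfr was at 0.092 with array weights and 0.071 in the table of 6 libraries, and Erbb2 at -0.000143 with array weights. With quantile normalization Erbb2 was at -0.054 and Hbegf at -0.13, and Erbb4 was at -2.48 both with a covariate for Y-linked RNA and among libraries with low Y-linked RNA. In tumors Egfr was at -0.056 with 5 luminal libraries pooled, and between domains Areg was at 0.041 with quantile normalization. With libraries left out, log2 fold changes ran in sorted cells from -0.20 to 0.10 for Egfr, -0.069 to 0.081 for Erbb2 and -0.12 to 0.40 for Hbegf. In tumors they ran from -0.48 to 0.51 for Egfr and -0.23 to 0.52 for Areg. Against luminal domains they ran from -0.79 to 0.19 for Egfr and -0.19 to 1.15 for Hbegf. Between domains they ran from -0.073 to 0.61 for Egfr, -0.29 to 0.26 for Areg and -2.42 to 0.28 for Ereg. The causes were not tested.

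Counts over all genes moved more. In sorted cells 467 genes were called, against 1054 with array weights, 269 without a trend, 147 in the table of 6 libraries, 26 with the Y covariate, 8 among libraries with low Y-linked RNA (1 control), and 129 to 596 with a library left out. In tumors 338 were called, against 52 with no filter, 142 without a trend, 142 with the 6 tumors alone, 513 pooled, and 3 to 813 with a library left out. Against luminal domains 377 were called, against 144 with no filter, 107 without a trend, 53 in the 8-library table, and 0 to 467 with a library left out. No paired analysis was possible because the columns carry no replicate numbers. Groups of 3 limit what can be called, and low values of Erbb4, and of Areg and Ereg in sorted controls, depend on few counts.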
